A study of Mus musculus with 16 samples.

Results

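The 8 genes Tnnt2, Tnni1, Myl4, Myl7, Des, Tcap, Fhl2 and Speg encode parts of the contractile apparatus of heart muscle and of the structures that anchor it. They were chosen by symbol, and all 8 were found among the 5921 genes held of the authors' table. Each was measured in 16 libraries of ventricular heart tissue from mouse embryos at E11.5. The study removed Atf4, which encodes a transcription factor of the integrated stress response, from cardiomyocytes with the transgene Xmlc2-Cre. The libraries fall into 4 groups of 4 biological replicates. These were exon 2-3 control and exon 2-3 cKO (conditional knockout, from an Atf4 allele with exons 2 and 3 floxed), all in batch 1, and exon 2 control and exon 2 cKO (from an allele with exon 2 alone floxed), all in batch 2. The genotype label reads C57BL/6 WT on all 16 samples, and whether the controls carried Cre or a floxed allele is not stated. The deletion was directed to cardiomyocytes, while the tissue also holds other cells with intact Atf4. The Atf4 gene itself was not analysed here, so each direction rests on the labels.

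Heart muscle contracts when calcium binds the troponin complex on the actin-based thin filament and so lets the myosin heads of the thick filament attach. Each myosin head carries an essential and a regulatory light chain. Thin filaments are anchored at the Z-disc, where titin ends and where desmin filaments tie neighbouring myofibrils together. In the embryonic ventricle several of these parts are made from genes that the adult ventricle uses little, such as the slow skeletal troponin I and the light chains later restricted to the atrium.

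Sequence before the annotated start was examined in 13 windows of 250 bases for 7 of the 8 genes, from RefSeq on GRCm38.p6 (no window for Tcap was in the table). Motifs were searched on both strands in these windows and in all 32851 windows of the same length. A CArG box, the recognition motif of serum response factor, was found before Myl7 and in both windows of Fhl2, and in 1.47% of all windows. A MEF2 site was found before Speg and in 1.69% of all windows. The GATA motif AGATAA was found before Tnnt2 and Fhl2 (9.99% of all windows), and TATAAA before Fhl2 (12.4%). The C/EBP-ATF response element, searched as TGATGNAA, the kind of site that ATF4 binds with its partners, was in none of the 13 windows and in 3.45% of all windows. A match describes these letters only. Speg and Des are printed because they are neighbours whose levels varied together (below), Tnnt2 because it had the widest spread of the members in the exon 2 line, and Myl7 and Fhl2 for their CArG boxes. Each runs 5′ to 3′ on the gene's strand and ends at the base before a transcript start that RefSeq gives, with motif matches in capitals. For Myl7, Speg and Des that start is the outer end of the gene's row, while for Tnnt2 and Fhl2 it is a start inside the row positions given below.
Tnnt2, chr1:135836084-135836333, plus strand (capitals: AGATAA on the other strand): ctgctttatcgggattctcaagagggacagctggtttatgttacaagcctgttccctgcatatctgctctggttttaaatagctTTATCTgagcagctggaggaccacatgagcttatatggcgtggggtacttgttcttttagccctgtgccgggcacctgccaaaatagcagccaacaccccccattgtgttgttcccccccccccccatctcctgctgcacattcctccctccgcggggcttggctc
Myl7, chr11:5898783-5899032, minus strand (capitals: CArG box): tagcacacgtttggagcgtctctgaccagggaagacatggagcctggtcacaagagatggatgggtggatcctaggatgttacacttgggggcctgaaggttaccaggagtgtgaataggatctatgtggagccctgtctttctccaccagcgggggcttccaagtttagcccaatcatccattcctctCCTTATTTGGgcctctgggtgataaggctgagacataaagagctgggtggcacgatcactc
Fhl2, chr1:43196762-43197011, minus strand (capitals: CArG box, then AGATAA and TATAAA on the other strand): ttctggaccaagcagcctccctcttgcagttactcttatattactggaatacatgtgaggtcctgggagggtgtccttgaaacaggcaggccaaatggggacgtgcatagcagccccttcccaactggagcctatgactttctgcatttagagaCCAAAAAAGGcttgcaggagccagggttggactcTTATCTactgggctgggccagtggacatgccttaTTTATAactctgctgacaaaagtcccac
Speg, chr1:75375047-75375296, plus strand (capitals: MEF2 site): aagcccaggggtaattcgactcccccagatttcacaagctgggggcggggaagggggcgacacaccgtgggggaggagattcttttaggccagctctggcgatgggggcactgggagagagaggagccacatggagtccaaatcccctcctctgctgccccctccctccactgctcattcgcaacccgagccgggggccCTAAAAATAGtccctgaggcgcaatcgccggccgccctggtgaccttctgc
Des, chr1:75360042-75360291, plus strand (no match to the 5 motifs): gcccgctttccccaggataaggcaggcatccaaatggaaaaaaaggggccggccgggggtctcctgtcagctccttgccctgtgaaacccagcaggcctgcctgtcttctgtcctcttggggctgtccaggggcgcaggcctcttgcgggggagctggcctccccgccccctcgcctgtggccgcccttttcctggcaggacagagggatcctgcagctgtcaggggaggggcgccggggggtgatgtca

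Levels are given in TPM, a transcript abundance scaled per length and to a fixed total per library, so that different genes can be compared. Tests ran on log2(TPM + 1) with limma over the 2620 genes whose mean over the 16 libraries reached 1 TPM, as all 8 did. A gene is called at a Benjamini-Hochberg adjusted p under 0.05 over those genes. The rows held made up between 15.2% and 17.1% of a library's TPM, and read depth per gene cannot be read from this unit. In bulk tissue, fewer cells of a type and less RNA per cell cannot be told apart.

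In control ventricle these were among the most abundant transcripts held. Together the 8 genes took 1.80% ± 0.0811 of a library's TPM in exon 2-3 controls and 1.36% ± 0.0951 in exon 2 controls (SD, n = 4 each). In the exon 2-3 controls Myl4 ranked 2 of the 2620 genes, Tnnt2 3, Myl7 4 and Tnni1 6. Des followed at rank 52, Tcap at 144, Fhl2 at 158 and Speg at 452. The libraries of neighbouring genes in this order did not overlap, except for Tcap and Fhl2. In the exon 2 controls the order was Myl4, Myl7, Tnnt2, Tnni1, Des, Fhl2, Tcap and Speg, and Myl7 with Tnnt2, and Fhl2 with Tcap, overlapped. The label as contractile genes of heart fits these levels, though Speg encodes a kinase and Des an intermediate filament protein outside the sarcomere proper.

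**Figure D1:**
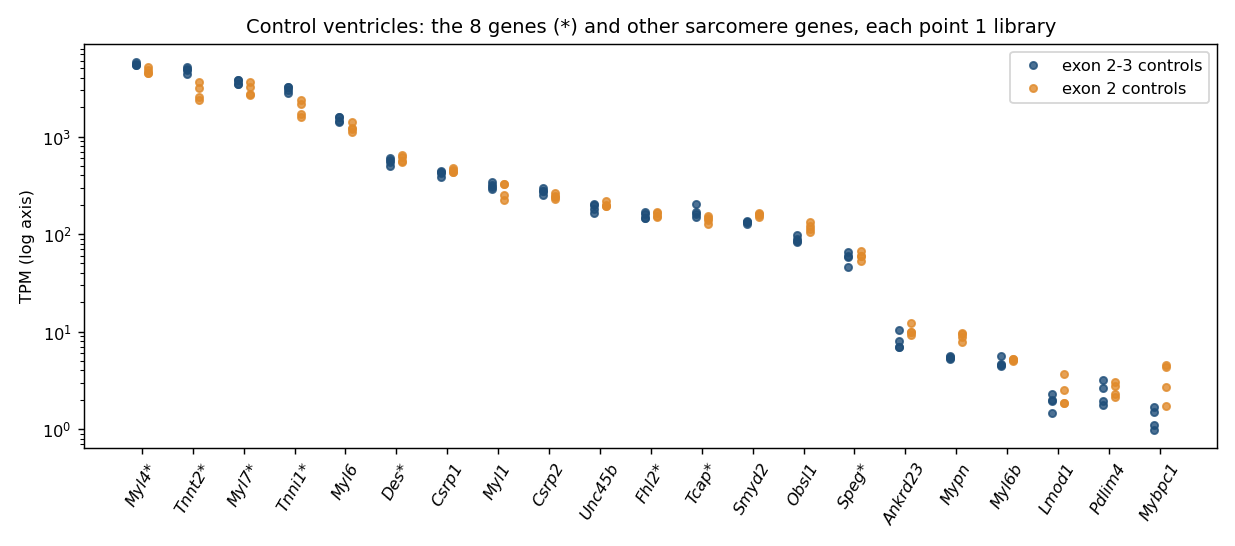
TPM (log axis) of the 8 genes (starred) and of other sarcomere genes in the 8 control libraries, each point 1 library, ordered by mean TPM. Myl4, Tnnt2, Myl7 and Tnni1 lie between 1586 and 5769 TPM in the control libraries, and Speg between 45.9 and 67.5 TPM.

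No member passed the threshold between cKO and control in either line (limma). In the exon 2-3 line the call was met by 0 of 8 genes, beside 6.72% of all genes tested (4.16% higher and 2.56% lower). There 1 of the 8 (Tnni1) had an unadjusted p under 0.05 (limma), beside 552 of all 2620 genes. In the exon 2 line the call was met by 0 of 8, beside 0.0763% of all genes. None of the 8 had an unadjusted p under 0.05 there (limma), beside 84 of all 2620 genes. No member was without overlap in the exon 2 line, beside 1.83% of all genes. The members' median log2 difference was -0.085 in the exon 2-3 line, where the median of all genes tested was 0.032, and -0.039 in the exon 2 line, where it was -0.012. In the exon 2-3 line 7 of the 8 estimates were below 0, and in the exon 2 line 6 were. The intervals below show how large a change these libraries still allow.

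Tnnt2 encodes cardiac troponin T, which ties the troponin complex to tropomyosin. The gene lies on chromosome 1, 135836315 to 135852268, plus strand (GRCm38, as for all positions here). In exon 2-3 controls its TPM was 4966, 4863, 4419 and 5167 in replicates 1 to 4. In exon 2-3 cKO it was 4980, 4828, 5031 and 4880. These groups overlapped, and the cKO libraries lay close together within the range of the controls. The log2 difference was 0.02 (SE 0.061, 95% interval -0.11 to 0.16, limma adjusted p 0.863). In exon 2 controls Tnnt2 had 2552, 3165, 2388 and 3630 TPM. In exon 2 cKO it had 4271, 2601, 2996 and 3619. Both groups of this line were widely spread and overlapped, with cKO replicate 1 the highest of the 8. Here the log2 difference was 0.20 (SE 0.17, 95% interval -0.18 to 0.57, limma adjusted p 0.999). It was 0.07 without cKO replicate 1, and 0.31 without cKO replicate 2.

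Tnni1 encodes slow skeletal troponin I, the inhibitory subunit, which the embryonic heart uses before the cardiac form. It lies 25325 bases before Tnnt2 (chromosome 1, 135783033 to 135810989, plus strand). Exon 2-3 controls had 3195, 2772, 3012 and 3252 TPM. Exon 2-3 cKO had 1556, 2584, 2697 and 2743. All 4 cKO libraries lay below all 4 controls, and replicate 1 stood far below the other cKO libraries. Among all genes tested, 14.5% had no overlap between these groups. The mean went from 3058 ± 216 to 2395 ± 563 TPM (SD, n = 4 each), a log2 difference of -0.39 (SE 0.16, 95% interval -0.75 to -0.02, limma adjusted p 0.213). Without cKO replicate 1 the difference was -0.19 (limma adjusted p 0.145), still without a call. Exon 2 controls had 1720, 2349, 2174 and 1586 TPM. Exon 2 cKO had 1562, 2265, 1502 and 1579. Here the groups overlapped, with replicate 2 the highest in both. The log2 difference was -0.18 (SE 0.16, 95% interval -0.53 to 0.16, limma adjusted p 0.999), and -0.32 without cKO replicate 2. It was -0.09 without control replicate 2.

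Myl4 encodes the essential light chain of embryonic and atrial myosin (chromosome 11, 104546017 to 104587215, plus strand). Its row overlaps 5 others, among them Cdc27 on the other strand and Gm7020 on the same strand. The highest mean among these 5 was 39.6 TPM, so the Myl4 value carries that uncertainty, which is small beside its own level. Exon 2-3 controls had 5769, 5411, 5481 and 5511 TPM. Exon 2-3 cKO had 5813, 5335, 5633 and 5137. The groups overlapped, and the log2 difference was -0.02 (SE 0.059, 95% interval -0.15 to 0.11, limma adjusted p 0.899). Exon 2 controls had 4769, 5152, 4493 and 4530 TPM. Exon 2 cKO had 4493, 4935, 4609 and 4472. They too overlapped, at a log2 difference of -0.03 (SE 0.078, 95% interval -0.21 to 0.14, limma adjusted p 0.999). Of the 8 genes Myl4 had the smallest log2 SD in each line, pooled over its control and cKO groups. This did not hold in every single group. In exon 2-3 cKO the SD was 92.2 TPM for Tnnt2 and 301 TPM for Myl4.

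Myl7 encodes the regulatory light chain of atrial and embryonic ventricular myosin (chromosome 11, 5896637 to 5898782, minus strand). Exon 2-3 controls had 3788, 3499, 3450 and 3802 TPM, and the cKO libraries had 3648, 3063, 3420 and 3772. The groups overlapped, with a log2 difference of -0.07 (SE 0.074, 95% interval -0.23 to 0.10, limma adjusted p 0.662). Exon 2 controls had 3632, 3248, 2692 and 2710 TPM, and the cKO libraries had 3028, 3184, 3092 and 2539. They overlapped as well, with a log2 difference of -0.05 (SE 0.11, 95% interval -0.30 to 0.21, limma adjusted p 0.999). Leaving out 1 library moved the Myl7 difference to between -0.11 and -0.0082 (without cKO replicate 2) in the exon 2-3 line, and to between -0.11 (without control replicate 3) and 0.04 (without control replicate 1) in the exon 2 line. For Myl4 the same fits gave -0.05 to 0.01 and -0.06 to 0.0086. The ratio of Myl4 to Myl7 lay between 1.31 and 1.76 in all 16 libraries.

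**Figure D2:**
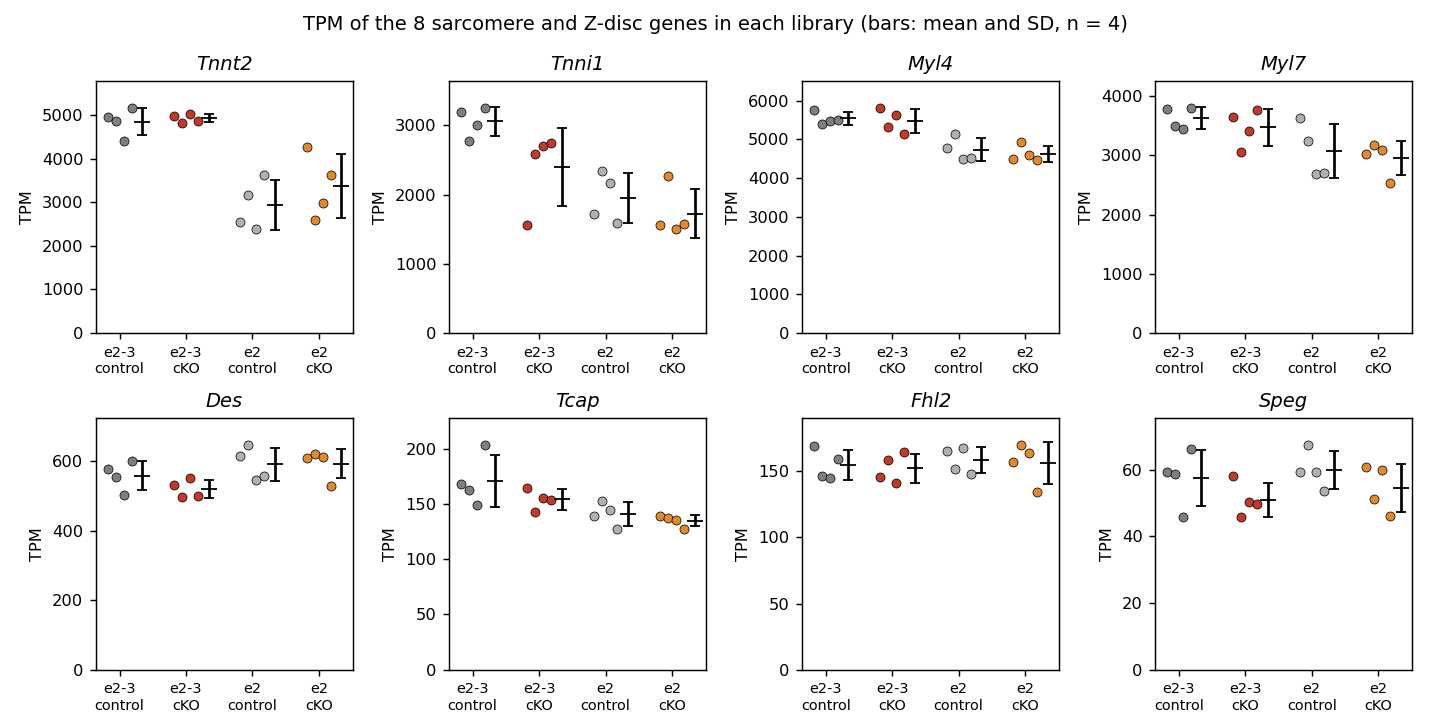
TPM of each of the 8 genes in each library (points, replicates 1 to 4 from left to right), with mean and SD (n = 4) beside each group; axes start at 0. Tnni1 is at most 2743 TPM in the exon 2-3 cKO libraries and at least 2772 TPM in the exon 2-3 controls, and Tnnt2 spreads from 2388 to 4271 TPM in the exon 2 line.

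Des encodes desmin, the muscle intermediate filament protein (chromosome 1, 75360292 to 75368579, plus strand). Exon 2-3 controls had 577, 554, 502 and 601 TPM, and cKO libraries had 531, 497, 552 and 499.7. The log2 difference was -0.10 (SE 0.064, 95% interval -0.24 to 0.04, limma adjusted p 0.403). Exon 2 controls had 614, 648, 545 and 558 TPM, and cKO libraries had 611, 621, 614 and 530.0. The difference in that line was 0.0064 (SE 0.075, 95% interval -0.16 to 0.17, limma adjusted p 0.999). Both pairs of groups overlapped. Leaving out 1 library gave -0.15 to -0.07 in the exon 2-3 line and -0.03 to 0.06 in the exon 2 line.

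Tcap encodes telethonin, which links the ends of titin at the Z-disc (chromosome 11, 98383811 to 98384953, plus strand). Exon 2-3 controls had 168, 162, 149 and 204 TPM, and cKO libraries had 165, 142, 155 and 154. Control replicate 4 was the highest of these libraries, and the groups overlapped. The log2 difference was -0.14 (SE 0.089, 95% interval -0.34 to 0.06, limma adjusted p 0.405), and -0.05 without that control. Exon 2 controls had 139.5, 153, 145 and 127 TPM, and cKO libraries had 139, 137, 136 and 127, again overlapping. The difference was -0.06 there (SE 0.063, 95% interval -0.20 to 0.08, limma adjusted p 0.999).

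Fhl2 encodes a LIM domain protein of the Z-disc and the nucleus (chromosome 1, 43123071 to 43198343, minus strand), and its row overlaps Gm8210 on the other strand (mean 46.4 TPM), so its value is uncertain. It ranged from 145 to 169 TPM in exon 2-3 controls, from 141 to 165 in exon 2-3 cKO, from 148 to 168 in exon 2 controls and from 134 to 170.0 in exon 2 cKO. Its differences between cKO and control were -0.02 in each line, with 95% intervals from -0.18 to 0.13 (exon 2-3) and from -0.19 to 0.15 (exon 2). It had no call in either line, and leaving out 1 library gave -0.06 to 0.02 (exon 2-3) and -0.06 to 0.05 (exon 2).

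Speg encodes a muscle kinase of the myosin light chain kinase family, at the junctions between sarcoplasmic reticulum and surface membrane (chromosome 1, 75375297 to 75432320, plus strand). Exon 2-3 controls had 59.3, 58.6, 45.9 and 66.2 TPM, and cKO libraries had 58.1, 45.7, 50.2 and 49.7. The log2 difference was -0.17 (SE 0.11, 95% interval -0.41 to 0.08, limma adjusted p 0.422). It was -0.27 without control replicate 3, which had the lowest control value, and -0.09 without control replicate 4, which had the highest. Exon 2 controls had 59.2, 67.5, 59.3 and 53.6 TPM, and cKO libraries had 60.9, 51.1, 59.8 and 46.2. The difference there was -0.14 (SE 0.097, 95% interval -0.35 to 0.08, limma adjusted p 0.999), and -0.06 without cKO replicate 4. The groups overlapped in both lines.

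**Figure D3:**
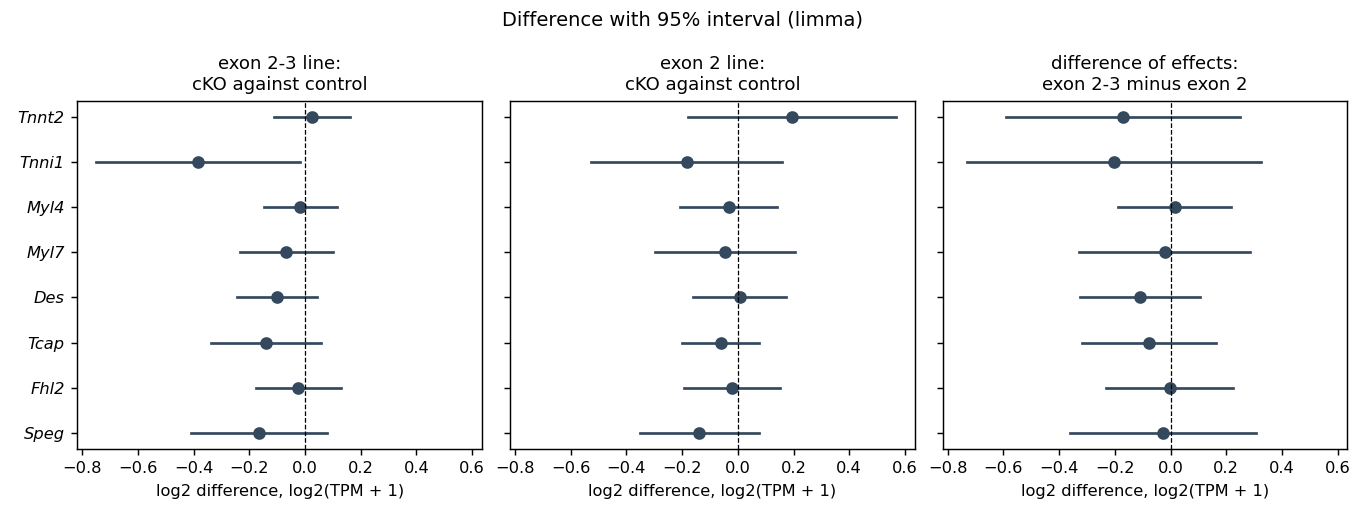
Log2 difference on the log2(TPM + 1) scale (points) with 95% interval (lines, limma) for the 8 genes, for cKO against control in each line and for the difference between the lines' effects. Of the 24 intervals, that of Tnni1 in the exon 2-3 line (-0.75 to -0.02) is the one that does not include 0, and its adjusted p was 0.213.

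Whether the effect of the cKO differed between the lines was tested by the interaction term of a model over all 16 libraries. It was called for 0 of the 8 genes, beside 2.37% of all genes tested (1.6% higher and 0.763% lower), and none had an unadjusted p under 0.05 (limma). The terms lay between -0.20 (Tnni1, 95% interval -0.73 to 0.32) and 0.01 (Myl4, 95% interval -0.19 to 0.22), with adjusted p-values from 0.702 to 0.994. For Tnni1 the term was -0.01 without exon 2-3 cKO replicate 1. For Tnnt2 it was -0.17 (95% interval -0.59 to 0.25), -0.05 without exon 2 cKO replicate 1 and -0.29 without exon 2 cKO replicate 2.

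Calls among the members were seen between the control groups of the 2 lines, where line and batch cannot be told apart. The call was met by 5 of the 8 genes, all higher in the exon 2-3 controls, beside 52.6% of all genes called, 14.4% higher and 38.1% lower. Tnnt2 had 4854 ± 316 TPM in exon 2-3 controls and 2934 ± 572 in exon 2 controls (SD, n = 4 each; log2 difference 0.74, SE 0.14, limma adjusted p 0.000400). For Tnni1 the values were 3058 ± 216 and 1957 ± 362 TPM (log2 difference 0.66, SE 0.18, limma adjusted p 0.00522). Neither gene had overlapping control groups. Myl4 also did not overlap, at 5543 ± 156 and 4736 ± 303 TPM (log2 difference 0.23, limma adjusted p 0.0102). Non-overlap was seen for 45.5% of all genes. Tcap (0.27, limma adjusted p 0.0107) and Myl7 (0.25, limma adjusted p 0.0477) were called with overlapping libraries. Des, Fhl2 and Speg had log2 differences of -0.08, -0.03 and -0.06 and no call. The median of all genes in this comparison was -0.14, and centring each library on its median moved it to 0.041. With that centring all 8 members lay above 0, and the same 5 genes were called higher. After quantile normalisation Myl4 (0.08, limma adjusted p 0.221) and Myl7 (0.11, limma adjusted p 0.231) lost their calls and Des was called lower (-0.19, limma adjusted p 0.00312), as it was after rescaling the rows held (-0.12, limma adjusted p 0.0413). Without a filter on low values Myl4 (limma adjusted p 0.0562) and Myl7 (limma adjusted p 0.121) were not called. Myl7 also lost its call in 11 of the 16 fits that left out 1 library. Tnnt2, Tnni1 and Tcap were called in each of their 26 alternative fits.

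The spread between replicates set 2 of the genes apart. On the log2 scale, the within-group SD of Tnnt2 was 0.070 in the exon 2-3 line, against 0.30 for the exon 2 line. Of the 246 genes with a mean of at least 100 TPM, 169 had a larger SD than Tnnt2 in the exon 2-3 line and 11 had a larger one in the exon 2 line. For Tnni1 these SDs were 0.29 and 0.27, exceeded by 6 and 12 of these genes. The median SD of the 246 genes was 0.087 and 0.093. Myl4 was at 0.063 and 0.079, below the median in both lines. Speg, with a mean below 100 TPM, was at 0.18 and 0.16, exceeded by 17 and 31 of the 246 genes. Tcap was at 0.15 and 0.089 (exceeded by 27 and 135), and Myl7 at 0.11 and 0.18 (69 and 23). Fhl2 was at 0.10 and 0.12 (84 and 52), and Des at 0.093 and 0.11 (107 and 75). The ratio of Tnnt2 to Tnni1 lay between 1.47 and 1.75 in exon 2-3 controls. It ranged from 1.78 to 3.20 in exon 2-3 cKO, from 1.10 to 2.29 in exon 2 controls and from 1.15 to 2.73 in exon 2 cKO. The 2 exon 2-3 ranges do not overlap, though control replicate 2 (1.75) and cKO replicate 4 (1.78) lie close. Tnni1 by itself did not overlap between these groups, and no share over other pairs of genes was computed. The highest value belongs to cKO replicate 1, where Tnni1 was low and Tnnt2 was not.

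Within a line, Des, Tcap and Speg varied together over the libraries, while Tnnt2 and Tnni1 did not rise together. With each line centred on its own mean, Tcap and Speg had a Pearson's r of 0.86 over the 16 libraries (0.91 and 0.82 over the 8 of each line). Des and Speg, with 6717 bases between their rows, had 0.77, and Des had 0.74 with Tcap, 0.73 with Myl7 and 0.66 with Myl4. Tnnt2 and Tnni1 had -0.37 (-0.11 in the exon 2-3 line and -0.58 in the exon 2 line). Fhl2 had 0.32 with Des, 0.31 with Tcap and 0.32 with Speg. Tnni1 had 0.71 with Tcap and 0.70 with Myl4 in the exon 2 line, and 0.20 and -0.34 in the other. In the exon 2-3 line Tnnt2 ran with Speg (0.69), Des (0.68) and Tcap (0.64), while in the exon 2 line these values were -0.11, -0.09 and -0.39. These values describe the libraries, share each library's scaling and depth, and carry no test.

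**Figure D4:**
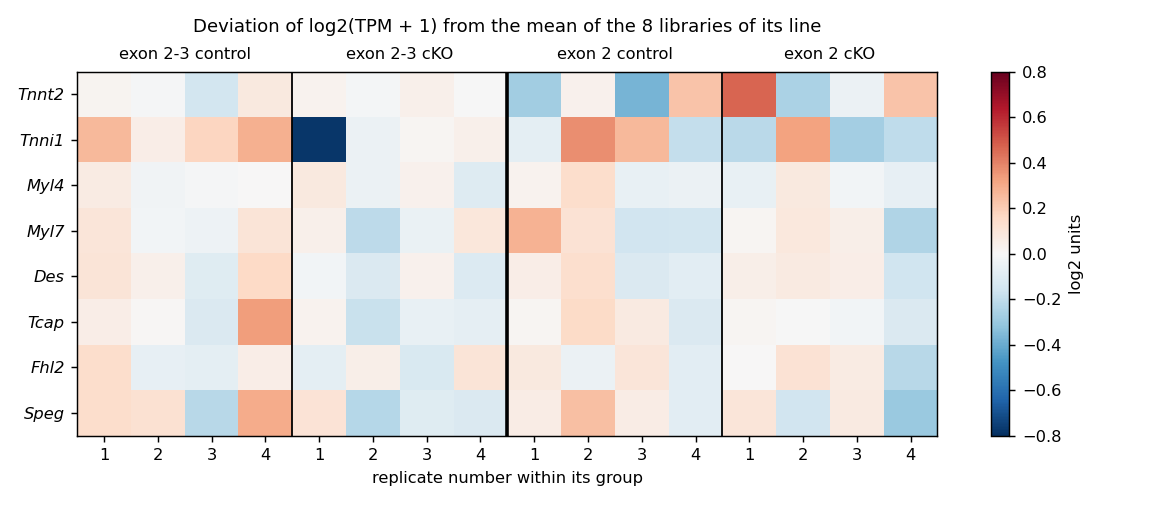
Deviation of each gene's log2(TPM + 1) from the mean of the 8 libraries of its line (colour, log2 units), by library. Tnni1 is far below its mean in exon 2-3 cKO replicate 1, and the row of Tnnt2 is nearly flat in the exon 2-3 line and strongly coloured in the exon 2 line.

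**Figure D5:**
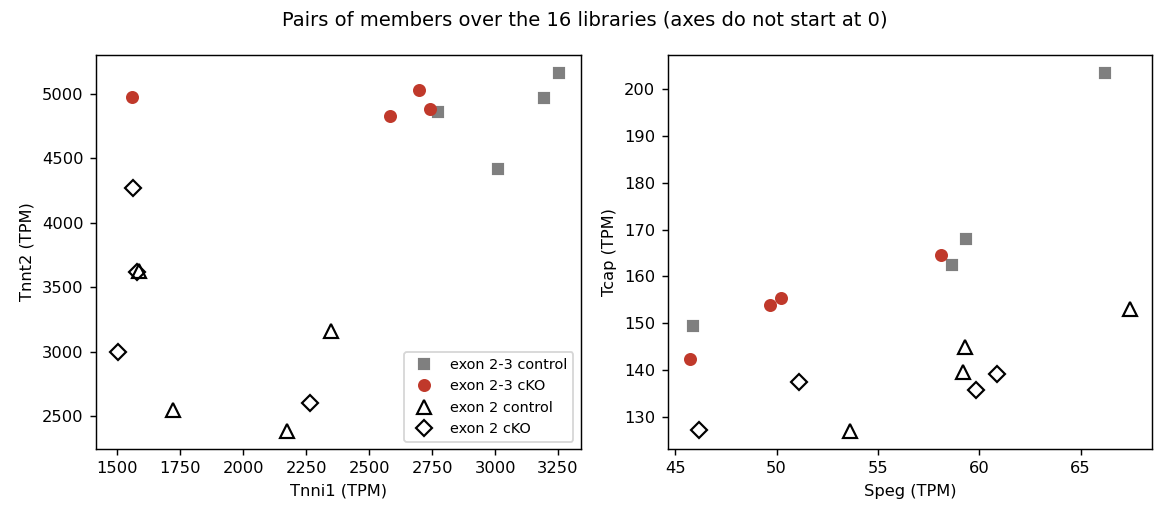
Tnnt2 against Tnni1 and Tcap against Speg (TPM) over the 16 libraries, by group; the axes do not start at 0. The points of Tcap and Speg rise together within each line, while Tnnt2 and Tnni1 do not, and exon 2-3 cKO replicate 1 stands alone at 4980 TPM of Tnnt2 and 1556 TPM of Tnni1.

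The genes most like the members' mean profile were Hk1 (hexokinase 1, r = 0.88), Psmc5 (a proteasome subunit, 0.88), Snx3 (a sorting nexin, 0.87), Wdr18 (0.86) and Ywhae (a 14-3-3 protein, 0.86), over 16 libraries centred by line. They are the upper end of all genes tested, whose 99th percentile of r, members left out, was 0.78. None of these 5 was called between cKO and control in either line. Against the same profile, which contains them, Des had 0.91, Tcap 0.87, Speg 0.86, Myl7 0.75, Myl4 0.62, Fhl2 0.51, Tnni1 0.43 and Tnnt2 -0.09.

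Of 86 other sarcomere genes listed, 20 were held and 14 were tested. The other 6 (Myh1, Myh2, Myh3, Myh8, Myh13 and Mybph, of skeletal muscle myosin and its binding protein) stayed under 0.971 TPM in each library. In the exon 2-3 line 2 of the 14 were called (14.3%, beside 6.72% of all genes tested), with a median over the 14 of -0.02. Between control and cKO of this line 4 of the 14 had no overlap, beside 14.5% of all genes tested. Lmod1, an actin filament nucleator of smooth muscle, had 2.31, 1.95, 1.47 and 2.00 TPM in controls and 3.29, 3.02, 4.34 and 5.10 in cKO. It rose without overlap by 0.74 on the log2(TPM + 1) scale (SE 0.15, limma adjusted p 0.0220), and lost its call without control replicate 2 (0.0538), without cKO replicate 3 (0.0646), with all genes kept (0.0816) and without the 2 cKO libraries highest in Hba-x (0.0747). Csrp2, a LIM domain protein known from smooth muscle, had 277, 276, 251 and 295 TPM in controls and 206, 226, 221 and 242 in cKO. It fell without overlap (log2 difference -0.29, SE 0.065, limma adjusted p 0.0291), and lost its call in 6 of the 8 fits that left out 1 library (largest adjusted p 0.0808). Its call was also lost with all genes kept (0.0816), with no intensity trend (0.0534) and without the 2 libraries highest in Hba-x (0.0632), so that 10 of its 19 alternative fits called it (limma adjusted p from 0.00107 to 0.0816). The interaction was called for neither (Lmod1 0.80, limma adjusted p 0.110, and Csrp2 -0.24, limma adjusted p 0.269). In the exon 2 line 0 of the 14 were called, beside 0.0763% of all genes tested. None had an unadjusted p under 0.05 (limma), beside 84 of all 2620 genes. All 14 estimates were below 0, with a median of -0.063, where the median of all genes tested was -0.012. Without cKO replicate 4 the median of the 14 was -0.035. The 14 estimates share the same 8 libraries and their scaling, and the share of all genes below 0 was not computed. Between the controls 7 of the 14 were called (50%, beside 52.6% of all genes tested, 14.4% higher and 38.1% lower), 1 higher in the exon 2-3 controls (Myl6, a light chain of smooth and non-muscle myosin, 0.29) and 6 lower. Those lower included Mypn (myopalladin, -0.64), Obsl1 (-0.40), Smyd2 (-0.25), Mybpc1 (-0.85) and Ankrd23 (-0.32).

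Markers of other cells were read in the same libraries. Of 10 cardiomyocyte markers listed 1 was held, Tnnt2 itself, so the label was checked on the 8 genes alone. The 5 epicardial and fibroblast markers held of 11 (Tcf21, Col1a1, Col3a1, Dcn and Lum) summed to between 256 and 291 TPM in exon 2-3 controls and between 395 and 432 in exon 2-3 cKO, without overlap. Their sums in the exon 2 line overlapped, at 385 to 548 in controls and 377 to 485 in cKO. The 4 erythroid markers held of 9 summed to between 2995 and 4554 TPM in exon 2-3 controls and between 1512 and 11293 in exon 2-3 cKO, with 2126 to 4707 and 2018 to 3738 in the exon 2 groups. Hba-x, an embryonic globin, was highest in exon 2-3 cKO replicates 4 (5163 TPM) and 2 (2435 TPM). Exon 2-3 cKO replicates 1 and 3 were left in a fit without these 2 libraries. There 0 of the 8 members and 0 of the 14 other genes were called (limma), beside 54 of all 2620 genes. Tnni1 was at -0.57 in that fit, where its lowest library, cKO replicate 1 (1556 TPM), was kept beside replicate 3 (2697 TPM). It was at -0.19 without replicate 1 alone. The 2 endothelial markers held of 11 summed to between 110.0 and 157 TPM over all groups, and the 4 macrophage markers held of 8 to between 60.3 and 89.5. Most of that macrophage sum was Lyz2, with group means between 58.1 and 80.3 TPM. Ptprc, Cd68 and Fcer1g had group means of at most 0.355, 6.35 and 4.21 TPM. The 7 skeletal muscle markers held of 11 summed to at most 5.84 TPM, and Mybpc1 alone reached 5.32. The 4 neuron markers held of 10 summed to 2.65 to 3.99 TPM in exon 2-3 controls and 3.73 to 4.64 in exon 2-3 cKO. Their sums were 5.14 to 7.29 in exon 2 controls and 5.04 to 7.20 in exon 2 cKO. No marker held was at 0 in all libraries. What part the epicardial, fibroblast and erythroid markers have in the values of the members was not tested.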

How the data were processed

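RNA-seq was made from ventricular heart of E11.5 embryos, 4 libraries in each of 4 groups taken from the sample titles. The authors deposited TPM values per gene. The submitters' processing notes name HISAT2 2.2.1, StringTie 2.2.1, Trim Galore 0.6.7, FastQC, featureCounts and DESeq2, and GRCm38, without saying which made the TPM. The annotation and the use of strand are not given in the sources used here. Row coordinates equalled RefSeq GRCm38.p6 for 5919 of 5921 rows. No depth per gene, interval on counts or floor could be computed from TPM. The labels differ on stranded mRNA or ribosomal depletion libraries, and the extraction text names cortical neurons.

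The table was held in part: chromosomes 1 (2219 rows), 10 (1695) and 11 up to position 106501211 (2007), and an incomplete last line was left out. The scale was log2(TPM + 1), on which changes of low genes come out too small, for the 2620 genes with a mean of at least 1 TPM. The 8 libraries of a line made up its fit, by limma 3.58.1 in R 4.3.3 (lmFit, then eBayes with trend). The interaction and the control contrast came from a group means model over 16 libraries. P-values were two-sided and adjusted by Benjamini-Hochberg over all genes tested, threshold 0.05. Figures used matplotlib 3.10.9. The fits were also run on simulated data, with noise drawn independently for each gene and library. The changes planted there were larger than the members' cKO estimates in the main fits. That run therefore cannot show whether changes as small as those estimates would be called.

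The members and lists were chosen with earlier results of these data known. All 8 members are named. Of the sarcomere list, the called genes are named, except 1 that is not reported here, and the 5 genes most like the members are those with the highest Pearson's r with the members' mean scaled profile. The 6 sarcomere genes under the filter, and those named for losing calls, were named after their values were seen. Alternatives were another pseudocount, filters, scalings, weights, fits, a replicate block and leaving out libraries. Leaving out the 2 cKO libraries highest in Hba-x, and rescaling the rows held, were chosen after seeing the data.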

Additional observations from a re-analysis of the deposited data

Results flagged for a closer look

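In 88 groups of 4 libraries (22 genes in 4 groups), the highest or lowest library was compared with the rest, and it stood apart by more than the 95% critical value of Dixon's test in 6. Chance alone flags about 1 in 20 groups. Tnni1 was low in exon 2-3 cKO replicate 1, at 1556 TPM with the nearest library at 2584. Tnni1 was high in exon 2 cKO replicate 2, at 2265 TPM with the nearest library at 1579. In exon 2 cKO replicate 4, Des was low at 530.0 TPM (nearest 611), Myl6 at 1087 TPM (nearest 1204) and Smyd2 at 146 TPM (nearest 158). Unc45b, a myosin chaperone, was high in exon 2 control replicate 1, at 220.2 TPM (nearest 198).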

How the results depend on the processing

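None of the 8 genes was called for the cKO effect of either line or its difference in any of 504 alternative fits (smallest adjusted p 0.0981). In the exon 2-3 line the 176 genes called, 61.9% of them higher, became 95 without a filter on low values, 311 (50.5% higher) after quantile normalisation, 343 (41.4% higher) after median centring, 283 after rescaling the rows held and 54 without the 2 libraries highest in Hba-x. Leaving out 1 library gave 70 to 190. The 2 other sarcomere genes called became 1 without a filter, 4 after centring, 1 with no intensity trend, 5 after rescaling and 0 without the 2 libraries, with 0 to 5 when 1 library was left out. In the exon 2 line 2 genes became 4 in one fit over all libraries, and 2 to 4 with 1 library left out. The 62 interaction calls became 133 after quantile normalisation, 127 after centring, 136 with array weights and 105 after rescaling, with 36 to 84 when 1 library was left out. There 0 other sarcomere genes became 1 after quantile normalisation and 1 with array weights (0 to 1 with 1 library left out), and the members' median of -0.053 ranged from -0.13 to 0.0046. Between controls the 5 members called became 3 without a filter, and their median of 0.24 became 0.097 after quantile normalisation and 0.42 after centring. The higher share of the 1377 control calls was 27.5%, and 57.7% after centring. Of 1942 alternative fits of single genes, 40 lost a call, 31 gained one and 0 changed sign with a call. The cause of these changes was not tested.

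Same-numbered libraries deviated together weakly or not at all (r of -0.029 to 0.21 in the exon 2-3 line and 0.064 to 0.20 in the exon 2 line). The cKO library most like a control had the same number for replicates 1, 2 and 3 of the exon 2 line. In the exon 2-3 line this held for replicate 4 alone. The numbers are not taken as pairs in the main fits. With the replicate block 149, 2, 68 and 1305 genes were called in the 4 comparisons. Members called were 0, 0, 0 and 4, with Myl7 at a limma adjusted p of 0.0529 between controls. The TPM unit keeps no depth, so counting error is unknown.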
